A study of Mus musculus with 6 samples.

Results

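This account concerns 10 genes known from smooth muscle contraction and from pericytes, measured in cultured cardiomyocytes of newborn mice. The genes were chosen by name, as Tagln, Cnn1, Cnn2, Cnn3, Myh11, Mylk, Myl9, Cald1, Smtn and Pdgfrb. All 10 had a row among the 52550 Ensembl genes of each count table, and all 10 passed the filter on low counts. Hearts were taken on postnatal day 1, and cardiomyocytes were enriched from the digested tissue by magnetic sorting. They were cultured with 5% horse serum and 10% fetal bovine serum for 48 hours and then kept without serum for 24 hours, in both groups. The 3 control libraries carry the genotype label ctrl. The 3 GR-cKO libraries come from mice in which the glucocorticoid receptor, the transcription factor through which corticosterone acts, was deleted in cardiomyocytes. The treatment label was ctrl in all 6 libraries. The sources used here do not give the Cre driver, the deleted exon, the strain or any pooling of animals.

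In smooth muscle, calcium bound to calmodulin activates myosin light chain kinase, which phosphorylates the regulatory light chain and lets smooth muscle myosin pull on actin. Transgelin, the calponins, caldesmon and smoothelin bind the actin filaments. Pericytes, the mural cells of small vessels, depend on the PDGF receptor beta. Many of these genes are transcribed under serum response factor with its coactivators of the myocardin family, which bind at the CArG box. In the developing heart several of them are also active outside smooth muscle, in immature cardiomyocytes and in fibroblasts in culture. In these bulk libraries, fewer cells of a type and less RNA per cell cannot be told apart.

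The promoters of the members that rose or fell are shown because the CArG box is the element through which this gene programme is best known to be controlled. RefSeq start-site windows on GRCm38.p6, from 250 bases before to 50 bases after a start, were matched for 7 of the 10 genes in 8 windows. No window was matched for Tagln, Myh11 or Pdgfrb. The stretches below run 5′ to 3′ on the plus strand, end before the gene start in GENCODE, and carry the CArG box in capitals. They lie at chr2:156775214-156775419 for Myl9, chr10:79988350-79988583 for Cnn2, chr9:22099003-22099215 for Cnn1 and chr3:121426291-121426496 for Cnn3.
Myl9: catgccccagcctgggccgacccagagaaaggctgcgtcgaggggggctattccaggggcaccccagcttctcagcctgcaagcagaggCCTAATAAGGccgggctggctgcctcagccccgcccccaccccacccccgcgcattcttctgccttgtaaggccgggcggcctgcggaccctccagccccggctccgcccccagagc
Cnn2: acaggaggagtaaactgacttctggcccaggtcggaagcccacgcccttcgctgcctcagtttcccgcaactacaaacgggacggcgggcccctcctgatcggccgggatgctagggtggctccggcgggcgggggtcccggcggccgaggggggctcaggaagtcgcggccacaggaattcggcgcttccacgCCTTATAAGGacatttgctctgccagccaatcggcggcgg
Cnn1: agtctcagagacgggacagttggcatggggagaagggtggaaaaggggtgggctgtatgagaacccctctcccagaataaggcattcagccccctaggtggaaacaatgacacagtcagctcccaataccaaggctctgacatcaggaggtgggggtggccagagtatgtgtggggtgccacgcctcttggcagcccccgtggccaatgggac
Cnn3: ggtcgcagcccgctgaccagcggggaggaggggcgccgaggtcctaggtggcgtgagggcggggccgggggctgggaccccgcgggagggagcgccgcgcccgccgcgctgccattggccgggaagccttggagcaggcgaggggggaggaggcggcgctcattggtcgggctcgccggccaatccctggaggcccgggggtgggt
A CArG box was found in the windows of Myl9, from base -161 to -152 counted from the RefSeq start, and of Cnn2, from base -56 to -47. It was found in 1.63% of all 32851 windows. Myl9 rose in GR-cKO. Cnn2 fell slightly (edgeR adjusted p = 0.0445), a call lost in 9 of the 13 alternative analyses, so no direction is read from the box. The windows of Cnn1, Cnn3, Cald1, Smtn and Mylk held no such match, which says only that these letters are absent from them. Among 3 further motifs searched on both strands, GGAATG, bound by TEAD factors, was found in windows of Cald1, Smtn and Mylk and in 14.7% of all windows. ACGTG, the core of the hypoxia response element, was found in windows of Cnn1 and Mylk and in 19.6% of all windows. AGAACA, a glucocorticoid receptor half-site, was found in the window of Mylk and in 19.0% of all windows. In the Mylk window AGAACA and GGAATG overlapped each other, and the CArG boxes overlapped none of the other motifs. A match is a description of sequence and not a measured site.

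Messenger RNA was counted near its polyadenylated end, so that a count does not grow with transcript length. It still depends on how uniquely the tags map, so comparisons of level between genes are approximate. The libraries held 19371508 to 22583596 gene counts. The receptor gene Nr3c1 was at 68.2, 73.9 and 72.4 CPM (counts per 1000000 gene counts, scaled by TMM factors) in the control libraries and at 46.2, 42.8 and 44.1 CPM in the GR-cKO libraries, which did not overlap. Since the deleted exon is not named, these 3′ counts do not measure how much working receptor remained. The groups also differed in sex-linked RNA, with Xist at 271 to 293 CPM in control and at most 0.0996 CPM in GR-cKO, and the Y-linked Ddx3y at 18.3 to 21.3 CPM in control and 86.4 to 94.7 CPM in GR-cKO. Every control library thus held both Xist and Ddx3y RNA, while GR-cKO held almost no Xist. Sex make-up and genotype cannot be told apart in these libraries. Whether the control libraries shared a pool of animals is not given. Of 14386 genes tested with edgeR's quasi-likelihood test at an adjusted p below 0.05, 14.8% passed, 1097 higher and 1035 lower in GR-cKO. Scaling on the ERCC spike-in RNAs gave 1355 higher and 522 lower.

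The members did not move together. Cnn1, Myl9 and Pdgfrb rose in GR-cKO, Cnn2 and Cnn3 fell slightly, and Tagln, Myh11, Mylk, Cald1 and Smtn did not pass the test. That made 3 of 10 higher, where 7.63% of all tested genes were higher, and 2 of 10 lower, where 7.19% of all tested genes were lower. The median log2 fold change of the 10 was -0.12, beside -0.01 over all tested genes. The ranges of the groups did not overlap for 5 of the 10, namely Cnn1, Myl9, Pdgfrb, Tagln and Cnn2, while 29.9% of all tested genes had ranges that did not overlap. The 3 rises passed in each of the 13 alternative analyses. The 2 falls did not. With ERCC scaling neither passed.

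**Figure D1:**
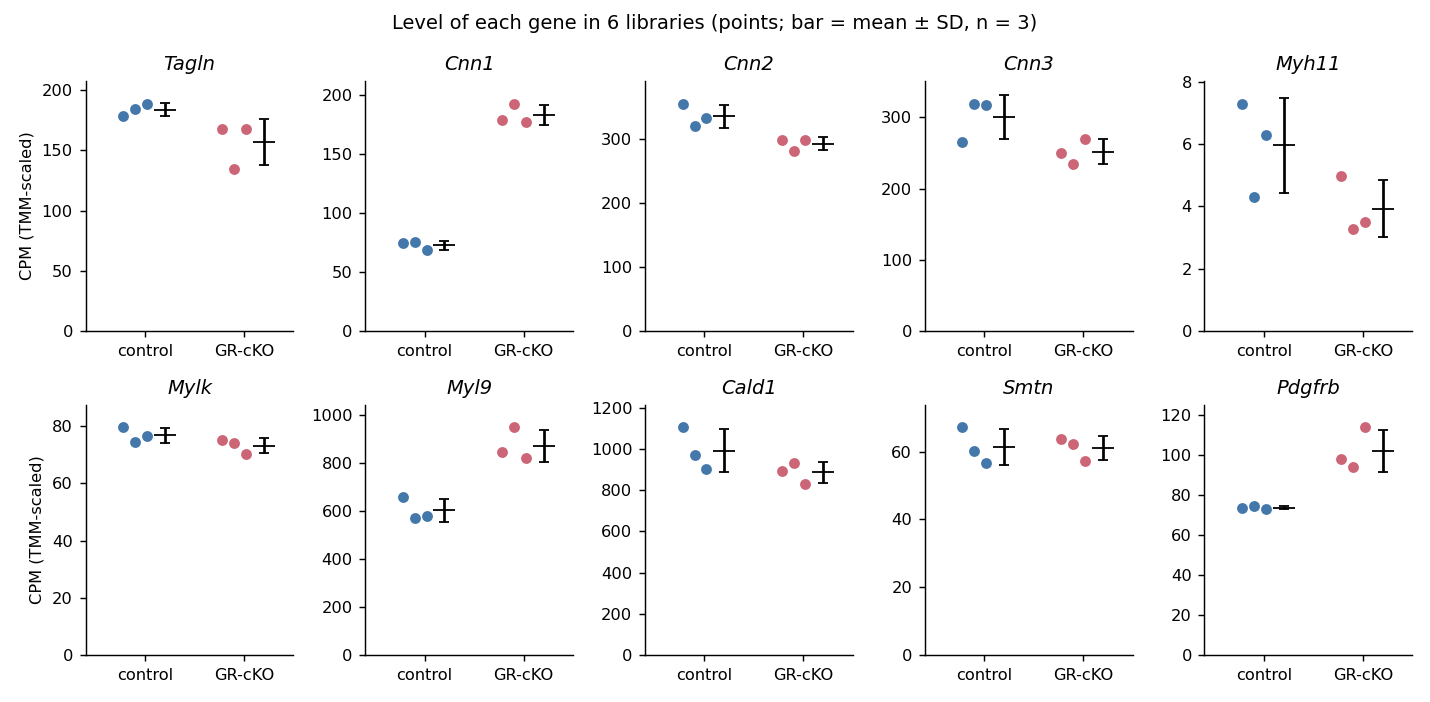
Level of each of the 10 genes in CPM (vertical axis, from 0, a separate scale per gene) in 3 control and 3 GR-cKO libraries (points), with the mean ± SD beside them (n = 3). Cnn1 stands at 68.4 to 75.3 CPM in control and 177 to 192 CPM in GR-cKO, and Smtn overlaps between the groups.

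The calponins are a family of 3 actin-binding proteins. Cnn1 encodes the form typical of smooth muscle, and Cnn2 and Cnn3 encode forms that many non-muscle cells make. Cnn1 (ENSMUSG00000001349, GRCm38 chromosome 9, 22099216 to 22109630, plus strand) was at 74.7, 75.3 and 68.4 CPM in the control libraries and at 178, 192 and 177 CPM in the GR-cKO libraries. All GR-cKO libraries lay far above all control libraries. The mean went from 72.8 ± 3.82 to 182 ± 8.5 CPM (SD, n = 3 each), a 2.51-fold rise (log2 fold change 1.33 ± 0.08 SE, edgeR adjusted p = 9e-12). Across the alternatives its log2 fold change lay between 1.28 and 1.42.

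Cnn2 (ENSMUSG00000004665, chromosome 10, 79988584 to 79996062, plus strand) was at 356, 320 and 333 CPM in control and at 298, 281 and 299 CPM in GR-cKO. Every GR-cKO library was below every control library, by little. The log2 fold change was -0.20 ± 0.07 (edgeR adjusted p = 0.0445). The call was close to the threshold and was lost when any 1 of the 6 libraries was left out. The adjusted p was then 0.172, 0.0634 and 0.0836 without control replicates 1, 2 and 3, and 0.0752, 0.2 and 0.0622 without GR-cKO replicates 1, 2 and 3. It was also lost with upper-quartile scaling (0.0532), with no filter on low counts (0.0518) and with ERCC scaling (0.541).

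Cnn3 (ENSMUSG00000053931, chromosome 3, 121426497 to 121458207, plus strand) was at 265, 319 and 317 CPM in control and at 250, 235 and 270 CPM in GR-cKO. Control replicate 1 lay below GR-cKO replicate 3, so the groups overlapped. The log2 fold change was -0.26 ± 0.08 (edgeR adjusted p = 0.0246). This call was lost with control replicate 2 (0.153) or 3 (0.116) left out, with GR-cKO replicate 1 (0.076) or 2 (0.158) left out, and with ERCC scaling (0.346).

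The make-up of the calponin counts does not depend on how libraries are scaled to each other. Cnn1 made up 10.7%, 10.5% and 9.51% of the summed counts of the 3 calponins in the control libraries and 24.6%, 27.1% and 23.7% in the GR-cKO libraries. Cnn2 went from 47.4% ± 3.29 to 40.3% ± 0.701 and Cnn3 from 42.3% ± 3.62 to 34.6% ± 1.52 (SD, n = 3 each). Cnn2 was thus the most counted calponin on average in both groups, and Cnn1 the least. As parts of 1 total, the shares of Cnn2 and Cnn3 must together fall when that of Cnn1 rises. Their lower shares are therefore no separate evidence that Cnn2 and Cnn3 fell. These shares are a description and were given no test.

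**Figure D2:**
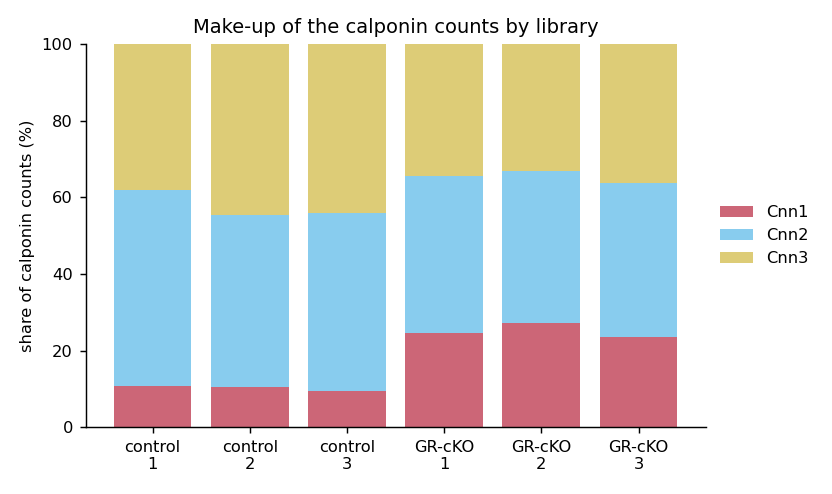
Share of Cnn1, Cnn2 and Cnn3 in the summed counts of the 3 calponin genes (vertical axis, percent) in each of the 6 libraries (1 bar each). The Cnn1 segment is 9.51% to 10.7% in the control libraries and 23.7% to 27.1% in the GR-cKO libraries.

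Transgelin, smoothelin and caldesmon are the other actin-binding members. Tagln (ENSMUSG00000032085, chromosome 9, 45929619 to 45936058, minus strand) encodes transgelin, or SM22 alpha, an early marker of the smooth muscle lineage that is also made in the embryonic heart. It was at 178, 185 and 189 CPM in control and at 167, 135 and 168 CPM in GR-cKO. Every GR-cKO library was below every control library, and replicate 2 was the lowest. The log2 fold change of -0.23 ± 0.08 missed the threshold (edgeR adjusted p = 0.0563). It passed without GR-cKO replicate 1 (0.0492) or GR-cKO replicate 3 (0.0364), with no filter on low counts (0.0335) and with the replicate number as a block (0.0227). Without GR-cKO replicate 2 the log2 fold change was -0.13 (adjusted p = 0.372). The 3′ end of Tagln overlaps that of Pcsk7 on the opposite strand by 108 bases. Pcsk7 itself had 143 to 261 counts in a library, and the sources used here do not give the strand setting of the counting.

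Cald1 (ENSMUSG00000029761, chromosome 6, 34598500 to 34775473, plus strand) encodes caldesmon, whose smooth muscle and non-muscle forms come from 1 gene and could not be told apart here. It was the most abundant member in control, at 1105, 970 and 902 CPM, and stood at 895, 932 and 833 CPM in GR-cKO. The groups overlapped. The log2 fold change was -0.16, with a 95% interval from -0.31 to -0.02 that is not adjusted for the number of genes (edgeR adjusted p = 0.131). Without control replicate 3, the lowest of its group, it passed (log2 fold change -0.23, adjusted p = 0.0486).

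Smtn (ENSMUSG00000020439, chromosome 11, 3517523 to 3540612, minus strand) encodes smoothelin, a protein of contractile smooth muscle. It was at 67.1, 60.3 and 56.5 CPM in control and at 63.8, 62.4 and 57.2 CPM in GR-cKO, so that the GR-cKO libraries fell within the control range. The log2 fold change was -0.0045, with a 95% interval from -0.19 to 0.18 (edgeR adjusted p = 0.985).

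The motor members went different ways. Myh11 (ENSMUSG00000018830, chromosome 16, 14194535 to 14291372, minus strand) encodes the smooth muscle myosin heavy chain, the member most restricted to mature smooth muscle. It was by far the scarcest, at 7.29, 4.31 and 6.27 CPM in control and 4.97, 3.29 and 3.5 CPM in GR-cKO, which were 152, 92 and 127 counts and 110, 66 and 68 counts. The groups overlapped through control replicate 2. The log2 fold change was -0.60 ± 0.27 (edgeR adjusted p = 0.151), and the 95% interval from -1.15 to -0.05 was the widest of the 10.

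Myl9 (ENSMUSG00000067818, chromosome 2, 156775420 to 156781658, plus strand) encodes the smooth muscle regulatory light chain, whose phosphorylation switches on the myosin. It was at 659, 571 and 578 CPM in control and at 844, 948 and 822 CPM in GR-cKO. The groups were well apart, with 822 CPM the lowest GR-cKO value and 659 CPM the highest control value. The control mean of 603 ± 48.8 CPM and the GR-cKO mean of 871 ± 67 CPM (SD, n = 3 each) gave a 1.45-fold rise with a log2 fold change of 0.53 ± 0.07 (edgeR adjusted p = 5.13e-06).

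Mylk (ENSMUSG00000022836, chromosome 16, 34745210 to 35002420, plus strand) encodes myosin light chain kinase. The gene also makes telokin, a short protein from its last exons, and a 3′ tag does not tell the messages apart. Mylk was at 79.5, 74.3 and 76.5 CPM in control and at 75.2, 74.1 and 70.1 CPM in GR-cKO. The groups overlapped, and the log2 fold change was -0.07, with a 95% interval from -0.24 to 0.10 (edgeR adjusted p = 0.656). The light chain rose, then, while no change was detected in the gene of its kinase, and the difference between them was not tested.

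Pdgfrb (ENSMUSG00000024620, chromosome 18, 61045150 to 61085061, plus strand) encodes the receptor for PDGF-BB and marks pericytes and other mural cells, and fibroblasts carry it as well. It was at 73.5, 74.5 and 73.1 CPM in control and at 97.9, 94.2 and 114 CPM in GR-cKO. The control libraries lay within 2 CPM of each other and all GR-cKO libraries were higher, with replicate 3 the highest. The mean rose 1.38-fold, from a control mean of 73.7 ± 0.757 CPM to a GR-cKO mean of 102 ± 10.5 CPM (SD, n = 3 each), with a log2 fold change of 0.47 ± 0.08 (edgeR adjusted p = 0.000265).

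**Figure D3:**
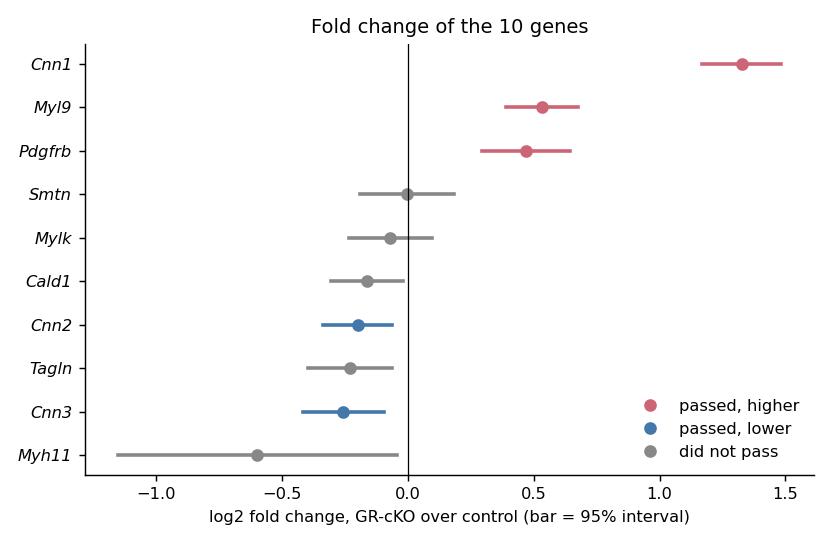
Log2 fold change of the 10 genes, GR-cKO over control (horizontal axis), with bars for the 95% interval and colours for the call by edgeR at an adjusted p below 0.05. Cnn1 stands apart at 1.33, Myl9 and Pdgfrb follow at 0.53 and 0.47, and the interval of Smtn runs from -0.19 to 0.18.

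The order of the levels differed between the groups. In control it ran Cald1, Myl9, Cnn2, Cnn3, Tagln, Mylk, Pdgfrb, Cnn1, Smtn and Myh11. Mylk and Pdgfrb, and Pdgfrb and Cnn1, had overlapping ranges there, and the other neighbours did not. In GR-cKO it ran Cald1, Myl9, Cnn2, Cnn3, Cnn1, Tagln, Pdgfrb, Mylk, Smtn and Myh11, so that Cnn1 had moved above Tagln. Only Cald1 and Myl9, at 833 to 932 and 822 to 948 CPM, overlapped as neighbours in GR-cKO.

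Among 10154 genes with at least 5 CPM on average, those whose log2 CPM followed Cnn1 most closely over the 6 libraries were the Y-linked genes Ddx3y (Pearson r = 0.9995) and Uty (0.9988) and the cytokine gene Mif (0.9985). For Cnn1, 409 genes had an r above 0.95, and genes that separate the groups in the same direction tend to correlate with it. Pdgfrb was most like Csk (0.9967), Med20 (0.9952) and Ccdc58 (0.9951). Myh11 was most like Opa3 (0.9982), Arhgap31 (0.991) and Pofut1 (0.9847), and had only 15 genes with an r above 0.95. The points share their libraries and group structure, so these values describe likeness alone.

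Other genes of the contractile apparatus moved in both directions. Of 29 tested genes of thin filaments, light chains and dense bodies, 9 rose and 8 fell, with a median log2 fold change of -0.0002. Of all tested genes, 7.63% were higher and 7.19% lower. Desmin, Des, the muscle intermediate filament, rose from 1242 ± 67.4 to 2438 ± 182 CPM (n = 3 each), and the actin-bundling protein gene Synpo2 from 29.5 ± 2.36 to 49.8 ± 3.77 CPM. The nexilin gene Nexn had a log2 fold change of 0.45 ± 0.06. Cardiomyocytes express Des and Nexn too. Cytoplasmic actin Actb, which has close copies in the genome, fell from 11918 ± 446 to 8237 ± 625 CPM (log2 fold change -0.53 ± 0.05). The smooth muscle actins, named after their values were seen, parted: Acta2 was at 3289, 3243 and 3352 CPM in control and 3954, 3831 and 3721 CPM in GR-cKO (log2 fold change 0.22 ± 0.05, edgeR adjusted p = 0.00437), and Actg2 at 34.2, 27.2 and 31.3 CPM in control and 18.8, 21.8 and 20.8 CPM in GR-cKO (-0.60 ± 0.12, adjusted p = 0.00104). With ERCC scaling 10 genes of this list rose and 2 fell, and 5 and 4 fell without control replicate 2 and without GR-cKO replicate 2.

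Of 24 genes that control light chain phosphorylation, 1 rose and 4 fell (median log2 fold change -0.04), beside 7.63% of all tested genes higher and 7.19% lower. Rock1, Rock2 and the phosphatase targeting subunit Ppp1r12a were among the 19 that did not pass. Of the kinases related to Mylk, 2 fell, Mylk3, the cardiac light chain kinase, from 566 ± 30.5 to 436 ± 9.6 CPM and Mylk4 from 50.6 ± 7.16 to 29.2 ± 0.984 CPM. Mylk2, the skeletal muscle kinase, was scarce, at 1.40 ± 0.751 and 1.89 ± 0.674 CPM (edgeR adjusted p = 0.654). The calmodulin gene Calm2 had a log2 fold change of -0.25 (edgeR adjusted p = 0.0142), which did not pass with control replicate 2 (0.11) or 3 (0.0593) or GR-cKO replicate 2 (0.119) left out, or with ERCC scaling (0.352). With ERCC scaling 5 genes of this list rose and 2 fell, and 2 fell without control replicate 2 or GR-cKO replicate 2.

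Among 22 transcriptional regulators of the programme, 1 rose and 4 fell (median log2 fold change -0.03). Over all tested genes, 7.63% were higher and 7.19% lower. Srf itself (control 203 ± 29.2 CPM, GR-cKO 216 ± 22.7 CPM) and its coactivator gene Myocd (control 56.2 ± 2.05 CPM, GR-cKO 49 ± 2.62 CPM) did not pass. Gata6, a GATA factor of heart and vessels, fell from 122 ± 2.32 to 86.9 ± 2.03 CPM (log2 fold change -0.49 ± 0.07, edgeR adjusted p = 3.81e-05). Mef2d rose from 110 ± 6.69 to 136 ± 3.38 CPM. Tead1 fell by 0.30 on the log2 scale, a call lost without GR-cKO replicate 2 (adjusted p = 0.0518) and with ERCC scaling (0.206). The actin-regulated coactivator gene Mrtfa fell by 0.39 (edgeR adjusted p = 0.0242), a call lost with control replicate 2 (0.0509) or 3 (0.0895) left out, with GR-cKO replicate 1 (0.138) or 2 (0.0823) left out, and with ERCC scaling (0.147). The list held 2 falls with control replicate 2 or 3 or GR-cKO replicate 2 left out, and 2 rises and 1 fall with ERCC scaling.

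Among 6 PDGF ligands and receptors other than Pdgfrb, Pdgfb rose and Pdgfa fell, beside 7.63% of all tested genes higher and 7.19% lower. Pdgfb, the ligand of this receptor, was at 17.9, 19.2 and 18.7 CPM in control and at 30, 29.7 and 37.2 CPM in GR-cKO. The groups were well apart (log2 fold change 0.80 ± 0.12, edgeR adjusted p = 4.23e-05). Pdgfa went from 329 ± 19.8 to 273 ± 17.4 CPM (log2 fold change -0.27 ± 0.07, edgeR adjusted p = 0.00998). That call was lost without control replicate 3 (0.0679), GR-cKO replicate 1 (0.0606) or GR-cKO replicate 2 (0.0622), and with ERCC scaling (0.265). The number of falls in this list was 0 in each of these 4 analyses and 2 without control replicate 2. The fibroblast receptor Pdgfra, at 47.3 ± 7.87 and 39.2 ± 2.82 CPM, did not pass.

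Of 16 pericyte genes listed beside Pdgfrb, 14 were tested, 9 rose and none fell, where 7.63% of all tested genes were higher. The 13 alternatives gave 8 or 9 rises and 0 falls. Des and Acta2 are on both this list and the list of filament genes. Cspg4, the proteoglycan NG2, rose from 142 ± 4.59 to 212 ± 10.7 CPM, and the forkhead factor gene Foxs1 from 23.5 ± 1.12 to 37.5 ± 2.13 CPM. Ndufa4l2, which also responds to hypoxia, had the largest change of the list, from 0.382 ± 0.238 to 33.3 ± 4.03 CPM. Notch3 and Rgs5, named after their values were seen, had log2 fold changes of 0.76 ± 0.13 and 1.04 ± 0.22. The channel subunit gene Abcc9, at 21.5 ± 1.41 and 21.1 ± 0.354 CPM (edgeR adjusted p = 0.92), and Cd248, the surface protein endosialin, at 35.6 ± 3.65 and 38.2 ± 2.84 CPM (adjusted p = 0.613), did not pass. Some other pericyte markers were at or near 0. Vtn was listed at 0 in all libraries, Higd1b was listed at 0 in the control libraries and at 0.149 to 0.271 CPM in GR-cKO, and Kcnj8 was at 1.34 ± 0.536 and 1.22 ± 0.741 CPM. A count of 0 allows up to 0.133 to 0.155 CPM in a library, taken as 3 counts, for counting error only. Scarce markers may have been tested only because GR-cKO was high, so the count of 9 is not read as support.

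**Figure D4:**
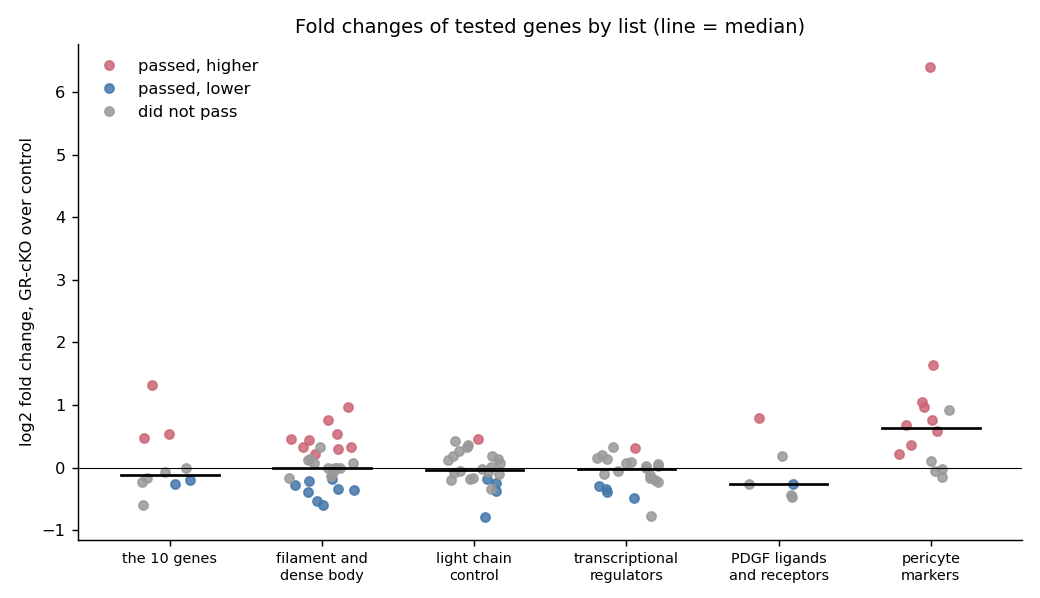
Log2 fold change, GR-cKO over control (vertical axis), of each tested gene (points, coloured by the edgeR call) in the 10 genes and 5 related lists, with a line at the median. The 10 genes spread from -0.60 to 1.33. The pericyte list, which shares Des and Acta2 with the filament list, holds 9 rises and no fall. Some of its markers were at or near 0, and the count of 9 is not read as support.

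Markers of several cell types also differed between the groups, beside 7.63% of all tested genes higher and 7.19% lower. Of 8 smooth muscle markers, Tagln, Cnn1, Myh11 and Smtn among them, 3 rose (Acta2, Cnn1 and Synpo2) and 1 fell. Their summed level was 3683 to 3788 CPM in control and 4264 to 4505 CPM in GR-cKO, most of it Acta2. Of 8 pericyte markers, Pdgfrb among them, 4 of the 6 tested rose and none fell, with sums of 259.98 to 269 and 352 to 401 CPM. These rises were of Pdgfrb, Rgs5, Cspg4 and Notch3, all given above, and are no separate evidence. Of 12 cardiomyocyte markers 10 rose and 1 fell, with sums of 50400.4 to 51970 and 65199 to 67086 CPM. All of the members summed to 2601 to 2864 and 2813 to 2956 CPM. These sums do not show which cells carried the members. Of 14 fibroblast markers 7 rose and 1 fell, with sums of 5139 to 5328 and 6409 to 6514 CPM. Of 12 endothelial markers 7 rose and 1 fell, with sums of 1373 to 1491 and 1548 to 1694 CPM. Of 10 leukocyte markers 3 of the 7 tested rose and none fell, with sums of 14.8 to 18.8 and 36 to 59 CPM. Of 8 epicardial markers 3 rose and 2 fell, with sums of 102 to 108 and 107 to 125 CPM. Of 5 neural and 5 erythroid markers, 3 and 2 were tested, and none passed in the main analysis. Without control replicate 2, 6 cardiomyocyte markers rose and 2 fibroblast markers fell, and without GR-cKO replicate 2, 4 fibroblast markers rose. No cardiomyocyte marker fell with ERCC scaling (0 of 12), 2 smooth muscle markers fell without GR-cKO replicate 1 or 3, and 2 smooth muscle and 2 endothelial markers fell with no filter or with the replicate block. The part of any of these cell types in the changes of Cnn1, Myl9 and Pdgfrb was not tested.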

How the data were processed

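Messenger RNA of 3 control and 3 GR-cKO libraries was sequenced as QuantSeq 3′ mRNA tags from 100 ng of total RNA, per the labels' protocols. Each library has a table of raw, unnormalized counts deposited by the authors. The submitters' processing notes name STAR 2.5.4a, featureCounts 1.6.2, cutadapt 1.16 and DESeq2 1.18.1 among their tools, and build GRCm38. The sources used here do not give the strand setting or the handling of multi-mapping reads, so genes with overlapping or near-identical copies are uncertain. Of 52550 Ensembl identifiers, 52403 matched GENCODE M21. The spike-in rows, 1.98% to 2.36% of counts, stayed out of library sizes and tests.

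Counts were tested with edgeR 4.0.16 in R 4.3.3 (quasi-likelihood test, default filter, TMM factors of 0.98 to 1.02, Benjamini-Hochberg adjustment over 14386 genes, threshold 0.05). The procedure was tested on simulated data. Levels are TMM-scaled CPM, fold changes are GR-cKO over control, their standard errors come from the F statistic, and 95% intervals use its degrees of freedom. Alternatives were 3 other scalings, DESeq2 1.42.0, 2 other filters, a replicate block and leaving out each library. The labels call the libraries of each group biological replicates but name no animal or culture of origin, so p-values measure the spread between these libraries. Replicates differed beyond sampling noise (median chi-square per gene 2.49 to 3.71 over pairs), and all 6 were counted as separate libraries. That difference does not show that they came from separate animals or cultures.

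The members and gene lists were chosen with earlier results of these data known. The text names all 10 members, Nr3c1, from each related list up to 4 genes with the smallest p among those that passed (with 1 exception), and the 3 genes most like Cnn1, Myh11 and Pdgfrb. Acta2, Actg2, Srf, Myocd, Rock1, Rock2, Ppp1r12a, Pdgfra, Notch3, Rgs5, Abcc9, Cd248, Mylk2, Vtn, Higd1b, Kcnj8, Xist and Pcsk7 were named after their values were seen. The exception, the only gene that rose in light chain control, is not reported here.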

Additional observations from a re-analysis of the deposited data

How the results depend on the processing

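Of 130 log2 fold changes computed for the members under the 13 alternatives, 105 kept their direction and their side of the threshold, 14 lost a call, 5 gained one and 6 changed direction. All 14 lost calls were of Cnn2 and Cnn3, the gained ones were of Tagln and Cald1, and the changes of direction were of genes that passed in no analysis. Mylk changed to 0.024 with ERCC scaling, and Smtn to 0.0036 with upper-quartile scaling, 0.093 with ERCC scaling and 0.0010 with at least 1 CPM in 3 libraries. With 1 library left out the log2 fold change of Smtn ranged from -0.060 to 0.065, above 0 without control replicate 1 or GR-cKO replicate 3. The number of members that fell was 1 with upper-quartile scaling and 0 with ERCC scaling, and 0 to 2 with 1 library left out. The number that rose was 3 throughout.

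With ERCC scaling, which moved the median log2 fold change of all genes from -0.01 to 0.09, 522 of all genes fell. Falls then numbered 2 among filament genes, 2 in light chain control, 1 among regulators and 0 among PDGF genes, and rises numbered 5 in light chain control and 2 among regulators (also 2 with DESeq2). With 1 library left out, falls ranged from 4 to 8, 2 to 5, 2 to 4 and 0 to 2 in these 4 lists, and genes called overall from 1572 to 1879. In those fits 1 group has 2 libraries.

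Same-numbered libraries did not deviate together (correlations of -0.0001, 0.04 and 0.02 over genes), and not every library correlated best with its own number. The numbers were therefore not taken to pair the libraries. With the replicate block 2353 genes passed, against 2132 without it, and 3 members rose and 3 fell, the added one being Tagln. Counting depth limits Myh11 most, at 66 to 152 counts a library.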
